A study of Mus musculus with 12 samples.

Results

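The probes described here are the 200 that were highest in control mouse spleen over a reference RNA, out of 35852 mouse probes on the array. To be eligible, a probe had to have its spleen signal (Cy3, the green dye) well above background on all 4 control arrays, as 23822 probes did. The eligible probes were ranked on the mean over the control arrays of log2(spleen signal / reference signal), and the 200 highest were taken. The members were thus chosen by these ratios on the control arrays alone, so their control levels are a description. All 200 members had a spleen signal well above background on all 12 arrays, each was printed as a single spot, and no member was lost to a filter.

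The study measured total RNA of spleen from C57BL6 mice in 3 groups of 4 arrays. The first group carried a knock-in of human TREX1 with the V235fs frameshift and the second a knock-in of human TREX1 with the D272fs frameshift, both described in the labels as conditional; the Cre or promoter that drives expression and the age of the mice are not given in the sources used here. The third group was labelled control, with no allele named. All mice were kept free of specific pathogens at one institute. Spleen RNA carried the Cy3 dye on every array and was hybridised beside a universal reference in Cy5, and dyes were not swapped, so a high ratio means more signal from spleen than from the reference. The labels do not say that the 4 replicates of a group were separate animals, so the p-values below measure only how these samples vary, and that variation may be technical.

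TREX1 is a 3′-to-5′ DNA exonuclease that degrades DNA in the cytosol, and its loss is known to let self DNA trigger an innate immune response. Frameshifts near the end of the protein leave the nuclease domain and remove the part that anchors it to the endoplasmic reticulum; V235fs is known from retinal vasculopathy with cerebral leukodystrophy and D272fs was reported with lupus. The spleen filters blood and holds B cells, T cells, macrophages and, in mice, blood-forming cells. A universal reference is a pool of RNA meant to give some signal for most genes, so the probes highest over it are those where the spleen signal is high relative to that of the pool.

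The annotation columns of the arrays name these 200 probes only by their identifiers and list their positions as unmapped, so no gene, chromosome or exon is assigned here. The sequence of each probe is deposited: 196 members are 60 bases long and 4 are 50 bases long. No member matched, over its whole length, a RefSeq promoter window (GRCm38.p6, 250 bases before to 50 bases after a gene's start) or a miRNA sequence. Part of M400010971 (36 bases) matched the start of Bcl2a1c on the same strand, and part of M400007245 (48 bases) matched the window of Trim34a on the opposite strand. A partial match does not assign a probe to a gene.

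The 4 members with the largest differences named below have these deposited sequences, written 5′ to 3′ and shown because no gene name stands for them.
M400008416: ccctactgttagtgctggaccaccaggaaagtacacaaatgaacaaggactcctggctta
M300022316: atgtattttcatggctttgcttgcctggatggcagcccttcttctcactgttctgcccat
M400009408: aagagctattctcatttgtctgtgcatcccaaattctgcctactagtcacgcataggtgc
M400002069: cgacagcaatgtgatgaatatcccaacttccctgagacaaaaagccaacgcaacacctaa

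Among the 200 members, 5 pairs shared an identical run of at least 20 bases, and these pairs are described side by side below. A shared run does not show that both probes read the same RNA. Capitals mark the shared run; only the run is shown for M400008560 and M400006959, whose probes have no reading frame free of stop codons.
M400007440: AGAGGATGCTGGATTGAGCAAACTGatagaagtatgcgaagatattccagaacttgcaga
M400008686: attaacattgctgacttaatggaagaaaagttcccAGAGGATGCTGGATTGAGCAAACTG
M400006996: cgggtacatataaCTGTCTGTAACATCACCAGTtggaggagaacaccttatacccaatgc
M400010774: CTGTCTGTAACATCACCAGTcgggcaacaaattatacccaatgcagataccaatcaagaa
M400010429: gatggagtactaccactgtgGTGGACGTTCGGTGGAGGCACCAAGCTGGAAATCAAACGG
M400010432: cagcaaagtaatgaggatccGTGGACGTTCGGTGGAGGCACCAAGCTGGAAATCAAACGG
M400009465: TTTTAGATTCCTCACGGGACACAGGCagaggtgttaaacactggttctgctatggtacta
M400001524: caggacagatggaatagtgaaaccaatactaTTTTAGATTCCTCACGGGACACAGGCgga
M400008560 and M400006959: TCTCTCTGTGGCTAGACTGCAG

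A run of at least 20 bases shared with any other mouse probe was found in 17 members (8.5%), against 4.00% of all eligible probes. The members were poorer in G and C than the other eligible probes, with a median of 46.7% against 50%. The motif AATAAA, searched on the probe's strand, was present in 12 members (6.0%) and in 2.31% of the other eligible probes. At least 1 reading frame on the probe's strand was free of stop codons in 172 members (86.0%), against 89.7% of the others. Identifiers that begin with M4 made up 58.0% of the members and 48.5% of the others. These shares are descriptions of the sequences, and members that share a run are not independent of each other.

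In control spleen the members' mean log2 ratio ran from 4.86 to 8.68 with a median of 5.45, which is 29.0-fold, 409-fold and 43.6-fold over the reference. The probe at the top was M200014846 in all 3 groups, with means of 8.68 ± 0.69 in control, 9.19 ± 0.17 in V235fs and 9.09 ± 0.26 in D272fs (SD, n = 4). Its reference signal was not well above background on any array, so its measured ratio is not exact and a lower bound is given beside it. Spleen was at least 124-fold over the reference in control, at least 120-fold in V235fs and at least 110-fold in D272fs. Such a bound sets the mean log2 spleen signal of a group against the weakest reference signal that was well above background on each array, or the probe's own where that was higher.

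The rule's threshold fell in a dense part of the ranking. The 3 members just inside it, M400004738, M400017511 and M400011025, each had a control mean of 4.86. The first probe just outside, M200001716, also stood at 4.86, and M400005751 and M400017009 followed at 4.84 each. On the knock-in arrays the probes on both sides of the threshold again had similar levels, between 4.88 and 5.89 in V235fs and between 4.90 and 5.57 in D272fs.

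A weak reference signal was more common among the members than a strong spleen signal. Among the eligible probes, the median member stood at percentile 73.3 of spleen signal and at percentile 7.14 of reference signal in control. There were 48 members in the top 10% of spleen signal and 43 below its median, whereas 178 were below the median of reference signal. The reference signal was well above background on all 12 arrays for 88 members, on some arrays for 78 and on no array for 34. For these last members no measured ratio is exact, and only a lower bound can be given. Where the reference was not well above background on any array of a group, as held for 52 members in control, 64 in V235fs and 48 in D272fs, the bound was above 2-fold for each of them, with medians of 20.4-fold, 24.6-fold and 20.4-fold.

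The members stayed high over the reference on the 8 knock-in arrays, which the rule had not used. All 200 exceeded a log2 ratio of 1 (2-fold) on every V235fs array, against 15% of all 26502 tested probes, and 199 did so on every D272fs array, against 14.4%. The exception was M200003054, named here after its values were seen, which read 0.95 in D272fs replicate 3 and 3.69, 6.70 and 4.84 in the other D272fs arrays. With normexp background the V235fs count was 187. The D272fs count was 113 with normexp, which could not be fitted well on D272fs replicate 3. On the control arrays, which chose them, all 200 did, against 13.9%. The median member was 54.0-fold over the reference in V235fs and 48.7-fold in D272fs. A mean log2 ratio above 7 was reached by 30 members in V235fs, 20 in D272fs and 13 in control. These are measured ratios, not exact where the reference was not well above background. The control means include replicate 4, whose median ratio was the lowest of all arrays.

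Ranking the probes within each group in the same way gave lists that overlapped without being the same. The 200 highest in control and in V235fs shared 158 probes (79% of each list), those in control and D272fs 161 (80.5%), and those in V235fs and D272fs 169 (84.5%), with 151 in all 3 lists. Few members left the top ranks by much: 9 ranked beyond 400 in V235fs and 6 in D272fs. The lowest by measured ratio were M400008416, which ranked 1544 in V235fs, and M400000955, which ranked 923 in D272fs. In V235fs the reference of M400008416 was not well above background, so its measured ratio is not exact. In D272fs, M400000955 was lowest in replicate 2, with a log2 ratio of 1.49 against 3.63 to 4.42 in the other D272fs arrays; in that replicate its reference level was -2.88, against -6.37 to -4.85, and its spleen level of -1.39 lay within the range of the others.

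**Figure D1:**
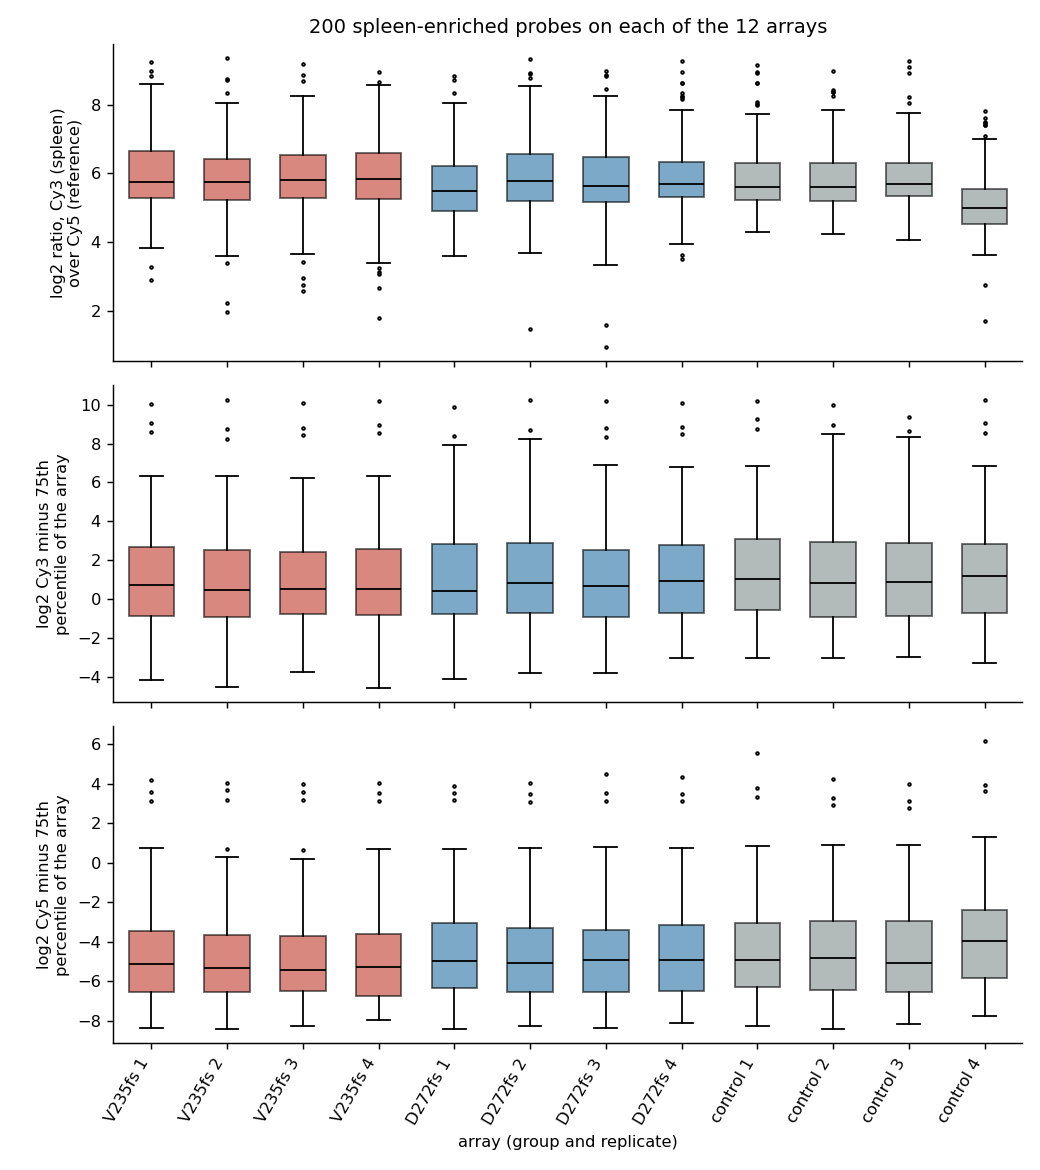
Box plots of the 200 members on each of the 12 arrays (x axis, group and replicate) show the log2 ratio of spleen over reference (top), log2 spleen signal (middle) and log2 reference signal (bottom), the last 2 relative to the array's 75th percentile. Boxes span the quartiles with the median as a line, whiskers reach 1.5 times the box, and dots lie beyond; control replicate 4 has the lowest median ratio (4.99) and the highest median reference signal (-3.95).

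The array median of the members was higher on every V235fs array than on any control array, and D272fs overlapped with each of these groups. In V235fs they were 5.75, 5.76, 5.80 and 5.84. In D272fs they were 5.48, 5.78, 5.64 and 5.69. In control they were 5.61, 5.60, 5.71 and 4.99. The V235fs arrays were the closest together, and the control group included 1 array, replicate 4, below all others. The group means of these medians were 5.79 ± 0.04 in V235fs, 5.65 ± 0.13 in D272fs and 5.48 ± 0.33 in control (SD, n = 4).

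The reference signal of the members, which comes from the same kind of RNA on every array, also differed between arrays. Its median relative to the array's 75th percentile was -5.30 ± 0.13 in V235fs, -4.98 ± 0.06 in D272fs and -4.70 ± 0.51 in control (SD, n = 4), and in control replicate 4 it was -3.95. The spleen signal of the members, on the same kind of scale, went the other way from the ratio, with medians of 0.56 ± 0.13 in V235fs, 0.71 ± 0.24 in D272fs and 0.97 ± 0.17 in control. Results are therefore given on both scales, the ratio and the spleen channel alone ("Cy3 alone": log2 spleen signal minus its 75th percentile on the array). Scanner records add a limit to every comparison: the 4 V235fs arrays shared 1 slide, the 4 D272fs arrays shared a second, and the controls lay on 3 further slides and were scanned on other days than the knock-ins, so slide and genotype cannot be told apart.

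The members were also more variable than most probes. The median within-group SD of the members' log2 ratio was 0.27 in V235fs, 0.29 in D272fs and 0.52 in control, against 0.19, 0.19 and 0.21 for all tested probes. An SD above 0.5 in all 3 groups was found for 20 members (10%), against 1.80% of tested probes. On Cy3 alone it was found for 9 members (4.5%), against 1.86%.

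The comparison of V235fs with D272fs asks whether the 2 frameshifts leave the spleen-typical set at the same level. Its differences of means do not use the control arrays that chose the members. Its p-values do, since the estimate of spread was shared by all 3 groups, so the calls are not independent of that choice. Of the 200 members, 1 passed the test (limma, Benjamini-Hochberg over 26502 probes, adjusted p under 0.05), M400008416, which was lower in V235fs. The share of all tested probes called was 0.0415%, with 0.00755% higher and 0.034% lower. The median difference of the members, V235fs minus D272fs, was 0.18 on the log2 scale, with 139 members above 0 and 61 below, while the median of all tested probes was 0.03. It was 0.11 without D272fs replicate 1 and turned to -0.084 when the arrays were scaled to a common spread. The individual differences ran from -1.69 to 1.33, and 165 members were within 1.5-fold. The arrays of the 2 groups did not overlap for 36 members (18%), against 10.1% of tested probes; V235fs was higher for 29 of them, against 5.52% of tested probes, and lower for 7, against 4.6%. An unadjusted p under 0.05 was reached by 39 members, and 14.2% of tested probes reached it.

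M400008416 gave log2 ratios of 2.90, 2.23, 2.75 and 2.67 in V235fs, of 3.88, 4.08, 4.09 and 3.95 in D272fs and of 5.12, 5.0, 5.12 and 4.67 in control. The 3 groups did not overlap, with V235fs lowest and control highest. The measured log2 ratio was lower in V235fs than in D272fs by 1.37 (SE 0.15, limma adjusted p = 0.0152). The reference signal was well above background on no V235fs array, on 1 D272fs array and on no control array. The measured ratios are thus not exact and their difference has no exact fold: V235fs spleen was at least 5.58-fold and control spleen at least 17.2-fold over the reference. On Cy3 alone, which needs no reference, the values were -2.88, -3.94, -3.71 and -3.10 in V235fs, -1.89, -1.68, -1.74 and -1.40 in D272fs and -2.55, -1.31, -1.12 and -2.05 in control. There V235fs was below every array of the other groups and D272fs lay within the range of control. The Cy3 difference, V235fs minus D272fs, was -1.73 (SE 0.31, adjusted p = 0.0283). Between arrays at the same position on their slides, the ratio difference ran from -1.86 to -0.99.

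The direction for M400008416 held in each of the alternatives run, but the call did not, and the size of the ratio difference moved. It was -0.65 with normexp background (limma adjusted p = 0.515), -1.02 with negative-control background (0.117), -1.10 with no background subtraction (0.0699) and -1.49 with arrays scaled to a common spread (0.102). With the replicate number as a block the adjusted p was 0.0654. The ratio call was kept in 11 of 17 fits on all arrays. Without V235fs replicate 3, D272fs replicate 1 or D272fs replicate 2 the adjusted p was 0.0637, 0.0540 or 0.0845, and with slide as a random block it was 0.521. On Cy3 alone it was also lost without V235fs replicates 2, 3 or 4 or D272fs replicates 1, 2 or 4, with adjusted p up to 0.100, and with slide as a random block (0.839).

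**Figure D2:**
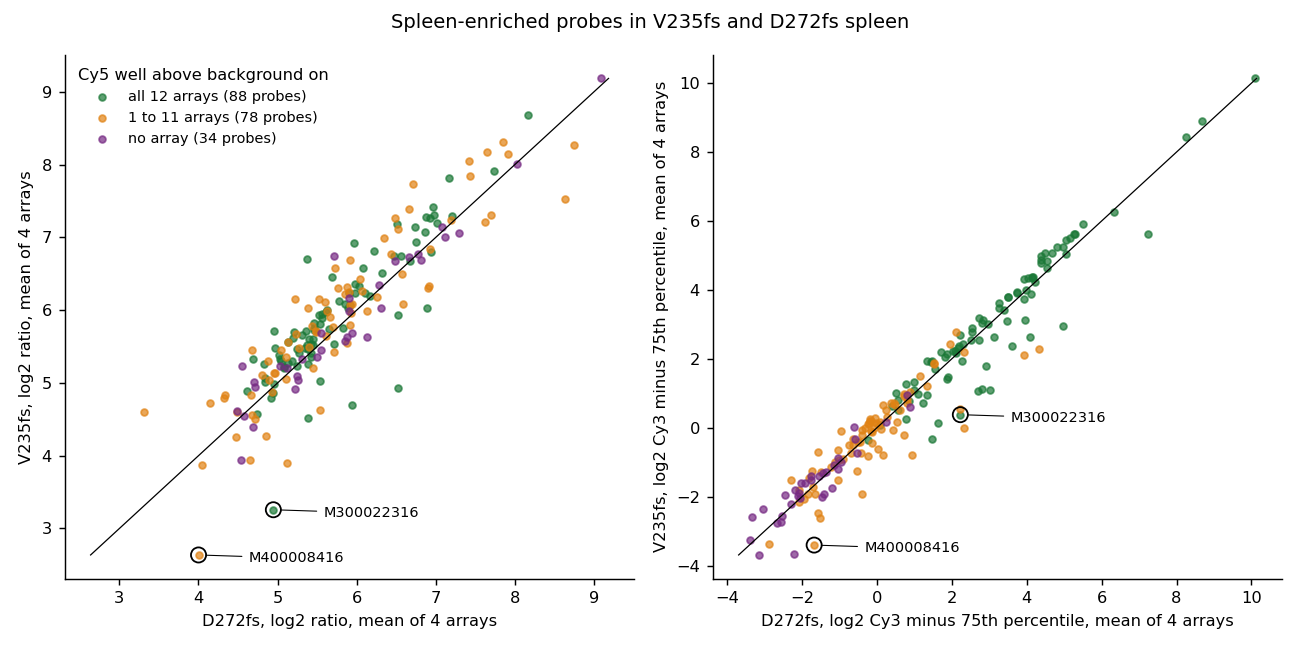
Each point is a member, with its mean over 4 D272fs arrays on the x axis and over 4 V235fs arrays on the y axis, as log2 ratio (left) and as log2 spleen signal relative to the array's 75th percentile (right); the line marks equal values and colours tell on how many arrays the reference was well above background. Most points follow the line, and M400008416 and M300022316, circled, lie below it in both panels.

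On Cy3 alone, 12 members passed the test between V235fs and D272fs, 1 higher and 11 lower in V235fs, and the share of all tested probes called was 4.22%, with 1.46% higher and 2.77% lower. The differences of these 12 ran from -2.31 to 0.87, whereas the median over all 200 members was 0.12 (0.065 without D272fs replicate 1). The 11 lower members had a median Cy3 difference of -1.83 and a median ratio difference of -0.86, and 10 of the 11 were below 0 on the ratio as well. Their reference signal moved the same way, with a median difference of -1.16, although it comes from the reference RNA; 6 of the 11 had it well above background on all 12 arrays.

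On each array the 11 had a median Cy3 level of 2.0, 0.05, 0.91 and 0.97 in V235fs, of 2.84, 3.11, 2.91 and 2.64 in D272fs and of 1.81, 3.05, 3.06 and 2.04 in control. The V235fs arrays were below the D272fs arrays, which follows from how the 11 were chosen, with replicate 1 the nearest. Control replicates 2 and 3, which shared a slide and a scan day, were close to D272fs. Control replicates 1 and 4, scanned on another day and on separate slides, were close to V235fs replicate 1. The V235fs and D272fs arrays were all scanned on 1 day, and with scan day as a random block 21 members were called between them. The part of scan day or slide in these levels was not tested. The count of 12 fell to 0 without V235fs replicate 2, 3 or 4 and without D272fs replicate 1, 2 or 4. It rose to 19 without V235fs replicate 1 and to 32 without control replicate 1, was 8 without control replicate 2, and was 0 with slide as a random block. The share of all tested probes called in these fits is not given here, so the counts do not tell whether the moves were particular to the members.

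M300022316, among the 11, gave Cy3 levels of 1.0, 0.45, -0.44 and 0.51 in V235fs, of 2.58, 1.87, 1.81 and 2.65 in D272fs and of 0.55, 2.23, 2.28 and 1.04 in control. V235fs did not overlap with D272fs, while control overlapped with each. Its Cy3 difference, V235fs minus D272fs, was -1.85 (SE 0.41, limma adjusted p = 0.0377). The log2 ratio differed by -1.69 (SE 0.36), which did not pass (limma adjusted p = 0.0865), with the reference well above background on all arrays. The Cy3 call was lost in 6 of the 12 fits that left out 1 array, with adjusted p up to 0.118, and with slide as a random block (0.839).

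The 1 member higher in V235fs on Cy3 alone was M400012336, named here after its values were seen. It read -0.11, -0.08, 0.07 and -0.26 in V235fs, -0.91, -1.15, -0.77 and -1.04 in D272fs and -0.66, -0.85, -0.94 and -1.11 in control. V235fs was above every other array, by 0.87 over D272fs (SE 0.13, limma adjusted p = 0.0283). On the ratio its difference from D272fs was -0.60 (SE 0.31), the other way, with the reference well above background on 1 of the 12 arrays.

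The comparisons with control describe how far the knock-in arrays lay from the arrays that chose the members. In V235fs, 29 members were called on the ratio, 27 higher and 2 lower, beside 8.69% of all tested probes (4.95% higher and 3.74% lower). The 2 lower members were M400008416 and M300022316. When the slide, the day of scanning or the position on the slide entered the model as a block, 1 member was called in place of 29. No slide or scan day held arrays of both groups, and 3 control arrays lay at position 4, with none at positions 2 and 3. These fits therefore cannot separate genotype from slide or day, and can hardly separate it from position. The V235fs and control arrays did not overlap for 46 members, beside 17.2% of tested probes, with 38 higher (beside 9.08%) and 8 lower (beside 8.07%). The members' median difference, V235fs minus control, was 0.34 on the ratio but -0.14 on Cy3 alone, so its direction depends on the scale. Without control replicate 4 the ratio median was 0.157, and without control replicate 1 the Cy3 median was -0.035. With normexp and with negative-control background the ratio median was also below 0. On the ratio 147 members were higher and 53 lower; on Cy3 alone 74 were higher and 126 lower. For 82 members the ratio was higher and the Cy3 signal lower than in control. Both were higher for 65 members and both lower for 44.

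The 27 members called higher on the ratio had differences of 0.51 to 1.44, with a median of 0.83. On Cy3 alone the same 27 had a median difference of 0.17, and 12 of them were below 0. Their reference signal differed by a median of -0.82, against -0.45 for all members. Choosing members on a higher ratio favours a lower reference signal in V235fs, so this contrast is a description only. The median Cy3 level of the 27 was 4.20 ± 0.15 in V235fs, 3.96 ± 0.24 in D272fs and 4.13 ± 0.29 in control (SD, n = 4), a set of values that overlap. Their median reference level was -2.44 ± 0.13, -2.11 ± 0.31 and -1.86 ± 0.35. Fits without V235fs replicate 2, 3 or 4 called 9, 5 or 3 members in place of 29.

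On Cy3 alone, 26 members were called between V235fs and control, 8 higher and 18 lower, beside 16.2% of all tested probes (10.2% higher and 6.04% lower). The 26 became 0 when slide was blocked, 2 when the day of scanning was blocked and 0 when slide position was blocked. The layout of the arrays limits these fits in the same way as on the ratio. The 18 lower ones had a median Cy3 level of 0.53 ± 0.40 in V235fs, 1.12 ± 0.27 in D272fs and 1.91 ± 0.07 in control (SD, n = 4), and 11 of the 18 were also below 0 on the ratio. The 8 higher ones had 0.30 ± 0.10, 0.00 ± 0.07 and -0.21 ± 0.06. In both lists D272fs lay between the other groups. The lists were chosen on the difference between V235fs and control, which sets those groups apart, so this order is not evidence. Of the 29 and the 26, 2 members were called on both scales, in the same direction each time: M400008416, lower, and M400007245, higher, the second one named here after its values were seen. M400007245 differed by 0.62 on the ratio (SE 0.14) and by 0.58 on Cy3 alone (SE 0.17). Without V235fs replicate 2, 3 or 4 the Cy3 count was 13, 11 or 17, without control replicate 2, 3 or 4 it was 13, 16 or 17, without V235fs replicate 1 it was 40, and without control replicate 1 it was 45.

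**Figure D3:**
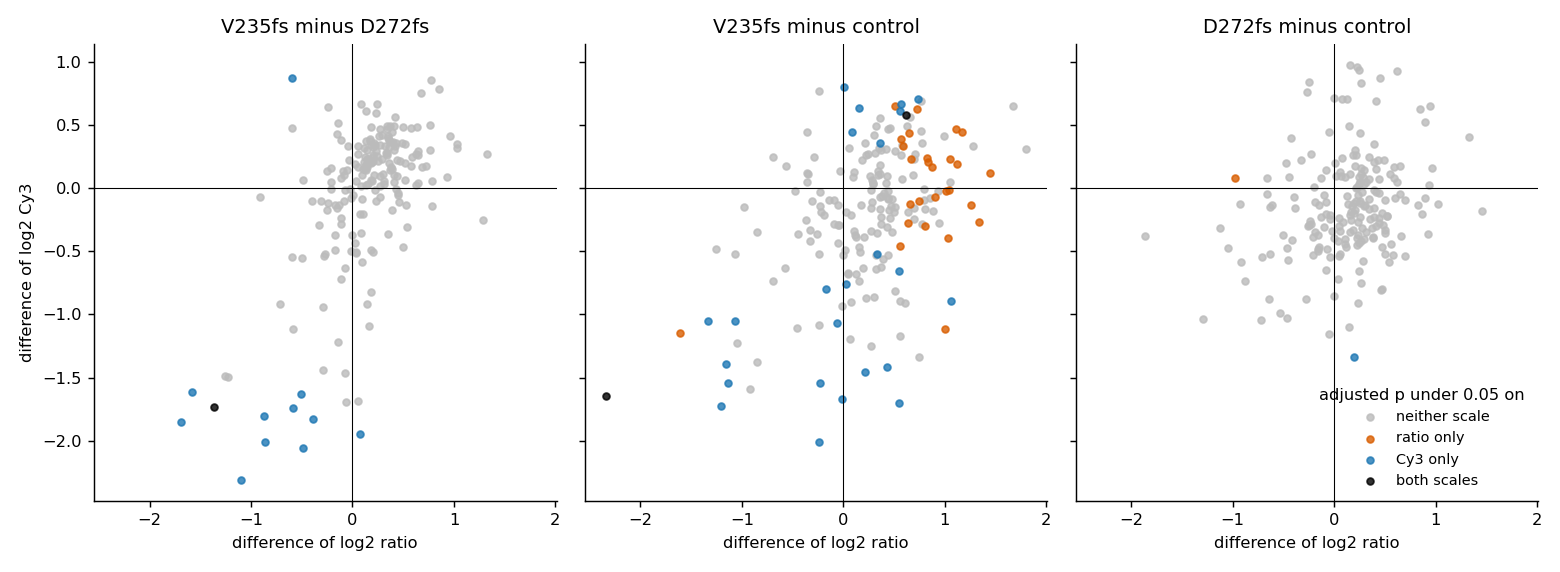
Each point is a member, with its difference in log2 ratio on the x axis and in log2 spleen signal (Cy3 alone) on the y axis, for the 3 comparisons; colours mark adjusted p under 0.05 on the ratio, on Cy3 alone, on both or on neither. In both comparisons with control many points lie right of 0 and below 0, 82 of the 200 members for V235fs and 84 for D272fs.

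M400009408 had the largest positive ratio difference among the members called in V235fs against control whose arrays did not overlap. Its log2 ratios were 6.83, 6.90, 6.99 and 6.99 in V235fs, 5.84, 6.19, 5.95 and 5.91 in D272fs and 6.01, 5.70, 5.64 and 4.61 in control. V235fs was above all other arrays, by 1.44 over control (SE 0.24). Its Cy3 levels were 5.78, 6.02, 6.0 and 5.89 in V235fs and 6.26, 5.49, 5.56 and 5.91 in control, which overlap, with a difference of 0.12 (SE 0.16). Its reference levels were -1.06, -0.88, -1.01 and -1.10 in V235fs, -0.26, -0.77, -0.28 and -0.49 in D272fs and 0.24, -0.22, -0.09 and 1.31 in control. V235fs and control were thus apart in the reference channel and overlapped in the spleen channel.

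M400002069 came next, with log2 ratios of 6.86, 6.97, 6.87 and 7.28 in V235fs, of 6.20, 6.43, 6.49 and 6.28 in D272fs and of 5.56, 6.33, 6.23 and 4.50 in control. V235fs was again above all other arrays, by 1.34 over control (SE 0.32), and no V235fs array had its reference well above background, so that spleen was at least 102-fold over the reference there. On Cy3 alone V235fs differed from control by -0.27 (SE 0.30), with control levels of 1.83, 0.26, 0.35 and 1.47 on both sides of the V235fs range of 0.64 to 0.79. Control replicates 1 and 4, scanned on the same day, were the high ones, while replicates 2 and 3 shared a slide and another day. The part of scan day or slide was not tested.

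**Figure D4:**
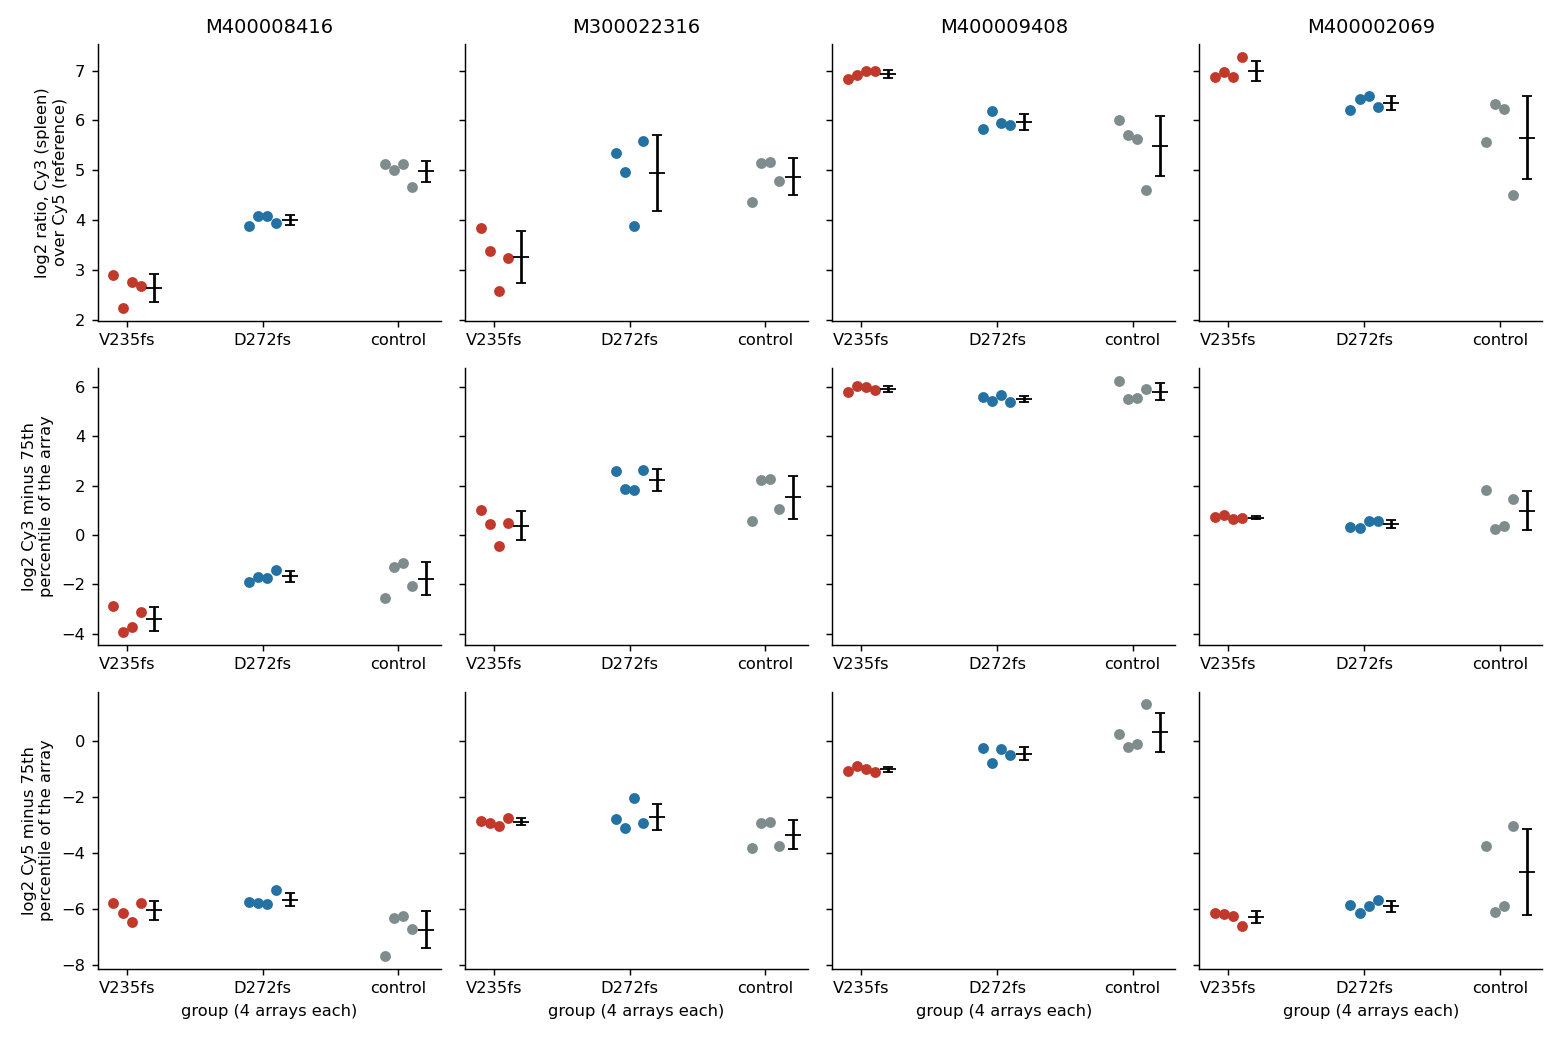
The 4 named members are plotted by group (x axis, 4 arrays each) as log2 ratio (top row), log2 spleen signal (middle row) and log2 reference signal (bottom row), the last 2 relative to the array's 75th percentile; dots are arrays and bars the mean ± SD. M400008416 separates V235fs in the ratio and the spleen signal, whereas M400009408 separates it in the ratio and the reference signal.

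Few members were called between D272fs and control. On the ratio 1 member was called, M400008416, lower, beside 0.457% of all tested probes (0.143% lower), and on Cy3 alone 1 member, M400010774, lower, also beside 0.457% (0.125% lower). M400008416 was lower than control by 0.98 on the ratio (SE 0.15), where the difference was -0.026 with no background subtraction and -0.21 with negative-control background, and by Cy3 alone the difference was 0.08 (SE 0.31), the other way. The members' median difference, D272fs minus control, was 0.20 on the ratio and -0.17 on Cy3 alone, and their reference signal differed by a median of -0.30. The arrays did not overlap for 16 members, beside 11.2% of tested probes, with 10 higher (beside 5.49%) and 6 lower (beside 5.68%). On the ratio 136 members were higher and 64 lower; on Cy3 alone 66 were higher and 134 lower. Without control replicate 4 the ratio median was 0.004 and 4 members were called. The single ratio call became 2 without control replicate 3, and 0 without V235fs replicate 3, D272fs replicate 1, 2 or 3, or control replicate 1 or 2. The single Cy3 call became 3 without control replicate 3, and 0 without V235fs replicate 3 or 4, D272fs replicate 1 or 2, or control replicate 2. In a bulk sample of spleen, fewer cells of a type and less RNA per cell cannot be told apart.

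The comparisons of V235fs and of D272fs with control share the 4 control arrays, so their likeness is not evidence. Side by side, the median differences from control were 0.34 and 0.20 on the ratio. They were -0.14 and -0.17 on Cy3 alone.

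The members were then divided by their reference signal, a division made after the data were seen. In the 88 members with the reference well above background on all 12 arrays, the median difference of V235fs from control was 0.38 on the ratio and -0.13 on Cy3 alone, and 22 of the 29 called members were among them. In the 34 with no such array the medians were 0.14 and -0.16, and the other 7 called members were in the class between. Between V235fs and D272fs the median ratio difference was 0.21 in the first class and -0.01 in the last, and on Cy3 alone it was 0.19 and 0.12.

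The pairs that share a run of sequence, chosen after their values were seen, showed how alike or unlike such probes behaved. M400006996 and M400010774 share 20 bases and moved together. On Cy3 alone M400006996 read 1.18, 1.18, 1.27 and 1.16 in V235fs, 1.43, 1.55, 0.73 and 1.66 in D272fs and 2.42, 2.04, 2.10 and 1.81 in control. M400010774 read 0.12, 0.11, 0.28 and 0.15 in V235fs, 0.48, 0.74, -0.01 and 0.88 in D272fs and 2.20, 1.60, 1.70 and 1.95 in control. For both probes every knock-in array was below every control array. V235fs was below control by 0.89 (SE 0.19) and 1.70 (SE 0.19) on the log2 scale.

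On the ratio the same pair pointed the other way, with V235fs above control by 1.06 (SE 0.38) and 0.55 (SE 0.30). Their reference levels had moved as well: M400010774 had -5.96, -5.37, -5.39 and -5.78 in V235fs against -2.85, -4.27, -4.08 and -2.31 in control. The spleen signal of this pair was thus lower in V235fs while its ratio was higher, and the part of the reference reading in this was not tested.

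M400007440 and M400008686 share 25 bases and were among the most variable members. On Cy3 alone M400007440 read 0.90, -0.22, -0.24 and 0.17 in V235fs, -0.35, -0.35, 1.03 and 0.59 in D272fs and 1.41, 0.44, -0.24 and 2.74 in control. M400008686 read 1.28, 0.02, 0.17 and 0.56 in V235fs, -0.01, 0.03, 1.37 and 1.06 in D272fs and 1.69, 0.75, 0.03 and 3.16 in control. Both were highest in control replicate 4, and within each group the same replicate was the highest for M400007440 and for M400008686. The reference was well above background on none of the 12 arrays for M400007440 and on 1 for M400008686, so spleen was at least 112-fold over the reference in control for M400007440. The groups overlapped for both probes.

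M400010429 and M400010432 share 40 bases. Their Cy3 means were 4.35 ± 0.59 and 4.83 ± 0.64 in V235fs, 4.14 ± 0.58 and 4.55 ± 0.72 in D272fs and 3.70 ± 0.29 and 4.20 ± 0.28 in control (SD, n = 4). Both were lowest in replicate 2 and highest in replicate 4 of V235fs, and lowest in replicate 2 and highest in replicate 3 of D272fs. V235fs was above control by 0.51 (SE 0.14) and 0.73 (SE 0.15) on the ratio, and by 0.65 (SE 0.32) and 0.62 (SE 0.36) on Cy3 alone, where the arrays overlapped.

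M400008560 and M400006959 share a run of 22 bases, are nearly identical outside that run too, and were bright in the spleen channel. Their log2 ratios averaged 7.30 ± 0.10 and 7.28 ± 0.15 in V235fs, 6.98 ± 0.07 and 6.88 ± 0.11 in D272fs and 6.48 ± 0.48 and 6.41 ± 0.57 in control (SD, n = 4). On Cy3 alone V235fs differed from control by 0.24 (SE 0.17) and 0.17 (SE 0.18). The last pair, M400009465 and M400001524, share 26 bases and differed from each other: V235fs minus D272fs was 0.93 for the first and -0.15 for the second on the ratio, and 0.09 and -0.16 on Cy3 alone.

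**Figure D5:**
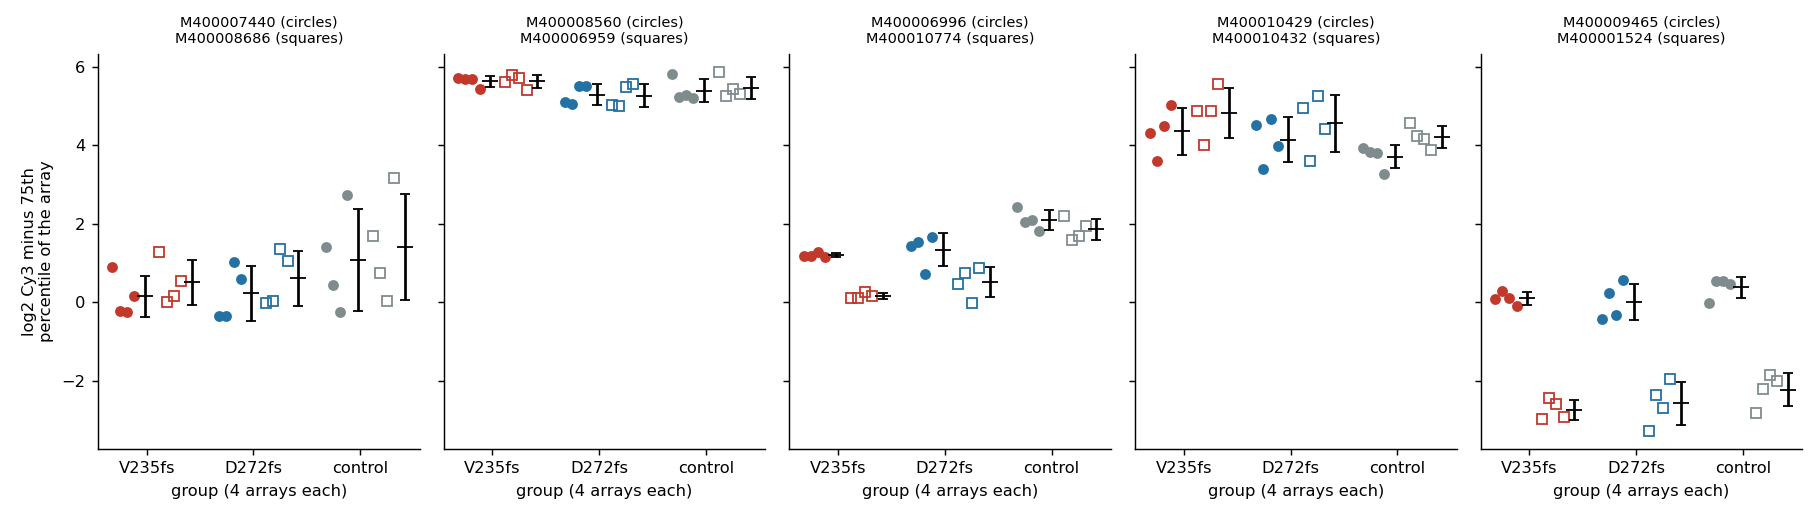
Each panel holds a pair of members that share a run of at least 20 bases, with log2 spleen signal relative to the array's 75th percentile on the y axis and the 3 groups (4 arrays each) on the x axis; symbols are arrays, in replicate order from left to right, and bars the mean ± SD. In the pair M400006996 and M400010774 all knock-in arrays lie below the control arrays of the same probe.

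The choice of members depended on how background was removed from the reference channel. With normexp, with no background subtraction, or with negative control spots as the background, the rule kept 103, 105 or 105 of the 200. There were 103 members taken under all of these treatments, of which 80 had the reference well above background on all 12 arrays, and 95 taken under the scanner software's processing only, of which 6 did. In the 103 the median difference of V235fs from D272fs was 0.20 on the ratio and 0.17 on Cy3 alone. In the 95 it was 0.09 on both scales.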

How the data were processed

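The 12 two-colour Agilent arrays were read from the deposited scanner files, which hold 1 intensity per spot and channel; per the file headers, Feature Extraction 11.5.1.1 subtracted background and normalised the dyes. The members' scale is log2(green / red processed signal), computed here from these deposited intensities. The series' value table, deposited by the authors, holds log10 ratios within 0.005 of the scanner files' own (column medians 0 to 0.00346) and served as an alternative. Spots of a probe were averaged and 114 spots marked as outliers were set to missing. Probes with Cy3 well above background on at least 4 of 12 arrays (26502) were fitted with limma 3.58.1 in R 4.3.3, 1 mean per group, with no covariate and Benjamini-Hochberg adjustment, and called at adjusted p under 0.05. The number of arrays limits the precision; no spot was saturated. Cy3 alone is log2 Cy3 minus its 75th percentile on the array. The fit was tested on simulated data with known changes. The file of D272fs replicate 4 carries 3 significant digits.

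The members and lists were chosen with earlier results of these data known. Named probes are, per comparison, at most 2 higher and 2 lower called members with the largest difference and no overlap between arrays, plus pairs and threshold probes. The gene and cell-type lists set out for this work, interferon response and spleen cell markers among them, were not run, and the tissue label was not checked against markers, since the probes carry no gene names here. Same-numbered arrays did not deviate together (correlations of -0.27, 0.21, -0.03 and -0.17 between V235fs and D272fs), so replicate numbers were not taken as pairs. Alternatives changed the background, channel, centring, scaling, filter, blocks, weights and arrays used.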

Additional observations from a re-analysis of the deposited data

Results flagged for a closer look

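In 96 groups of 4 arrays (array medians and the 14 probes shown by sequence), 5 had 1 array far from the other 3, and chance alone gives about 1 in 20 such groups. The members' median log2 ratio was 4.99 in control replicate 4, against 5.60 to 5.71 in the other controls. M400010429 had a log2 ratio of 5.30 in control replicate 4, against 5.84 to 5.90. On Cy3 alone, M400008560 was at 5.82 in control replicate 1, against 5.21 to 5.28, and at 5.42 in V235fs replicate 4, against 5.68 to 5.70. M400009465 was at -0.0051 in control replicate 1, against 0.46 to 0.55.

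The knock-ins differed by test for 2 of these probes. M400008416 was lower in V235fs than in D272fs, with a difference of -1.37 on the ratio and -1.73 on Cy3 alone. M300022316 differed by -1.85 on Cy3 alone. With slide as a random block neither difference passed (limma adjusted p = 0.521 and 0.839 for M400008416 on the ratio and on Cy3 alone, and 0.839 for M300022316 on Cy3 alone). Each knock-in had its own slide, so such a fit cannot separate slide from genotype. On Cy3 alone each call held in 6 of 12 fits that left out 1 array.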

How the results depend on the processing

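Counts of called members, given here in the order V235fs against D272fs, V235fs against control, D272fs against control, moved with most choices. For these alternatives, here and above, the share of all tested probes called is not given beside the counts. The counts therefore do not tell whether members were called more often than other probes under a given choice. From 1, 29 and 1 on the ratio they became 0, 1 and 0 with normexp background, 0, 2 and 0 with scaling of the arrays, 0, 1 and 0 with slide as a random block, 2, 1 and 0 when slide position was a block, 4, 10 and 0 when only the groups compared were fitted, and 14, 56 and 5 with array weights. With the replicate number as a block they were 0, 14 and 0, and on Cy3 alone, where they had been 12, 26 and 1, this replicate block gave 5, 22 and 0. V235fs against D272fs was 0 with no background subtraction, with negative-control background and among members with Cy5 well above background on all 12 arrays; D272fs against control was 2 with negative-control background, 0 among those members and 0 with scan day as a random block. V235fs against control was 1 with scan day as a random block, 16 with no filter and 7 among members with Cy5 below that mark on some array. On Cy3 alone, slide as a random block gave 0 in all 3 comparisons, scan day gave 21, 2 and 0, position gave 0 for both comparisons with control, and members with Cy5 above background on all 12 arrays gave 6, 11 and 0. With 1 array left out the counts ranged from 0 to 3, 3 to 31 and 0 to 4 on the ratio and from 0 to 32, 11 to 45 and 0 to 3 on Cy3 alone.

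The median difference of V235fs from D272fs (0.18) was 0.41 with normexp and -0.084 with scaling. That of V235fs from control (0.34) was -0.17 with normexp, -0.068 with negative-control background and -0.14 on Cy3 alone; that of D272fs from control (0.20) was -0.51 with normexp and -0.17 on Cy3 alone. With 1 array left out these 3 ratio medians kept their sign, but fell to 0.105 without D272fs replicate 1 for the first and to 0.157 and 0.004 without control replicate 4 for the others. Under normexp, 187 members stayed above 2-fold on every V235fs array. On every D272fs array 113 did, where normexp could not be fitted well on replicate 3. The rule kept 103 members with normexp and 105 with either other background, and between 186 and 192 with 1 control array left out. Apart from the constructions named (fewer arrays, fewer members, other blocks), the cause of these moves was not tested. A weak reference signal limits the ratios: for 112 members it was not well above background on at least 1 array.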
